A study of Mus musculus
Rattus norvegicus and Rattus norvegicus and Mus musculus with 18 samples.

Results

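The 48 genes described here act in G2 and mitosis, the stages in which a cell that has copied its DNA condenses its chromosomes, pulls them apart and divides. They were chosen by name and fall into 8 roles, from mitotic entry (9 genes) to cytokinesis (6 genes). All 48 were found among the 17672 genes of the table of mouse reads. In the table of rat reads, 47 were found among 14876 genes, Kif4 under its rat symbol Kif4a. The rat copy of Ccnb2 was not analysed here.

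Entry into mitosis is driven by cyclin B bound to the kinase Cdk1, which Cdc25 phosphatases switch on. Checkpoint kinases at the kinetochores hold the cell until every chromosome is attached. The ubiquitin ligase APC/C, with Cdc20 and the conjugating enzyme Ube2c, then destroys securin and cyclin B, so that separase can open the cohesin rings. Most of these genes are transcribed late in the cell cycle, under B-Myb, FoxM1 and the MuvB complex, and are low in resting cells.

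Cells of 4T1, a mouse mammary carcinoma line, had been placed in the mammary fat pad of untreated SRG hosts, an immunodeficient rat strain known for lacking B, T and NK cells, with the genotype tag wildtype on every sample. On day 27 the tumors were split into a necrotic core and a rim without necrosis, each sequenced from the same 5 rats, and lungs gave another 5 libraries. Rat3789 gave a lung library alone and Rat3867 tumor libraries alone. Mouse reads therefore stand for the carcinoma cells and rat reads for the host. The controls were 2 libraries of normal rat mammary gland without a transplant and 1 library of pelleted 4T1 cells, so values of the pellet have no replicate. Values are CPM, read counts scaled to library size with a further factor per library, given in the order Rat3867, Rat3869, Rat3875, Rat3876 and Rat3877 for core and rim, and with Rat3789 in place of Rat3867 for lung.

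Tumor and lung libraries held 15346400 to 26669410 mouse reads and 3146720 to 10015352 rat reads. Mouse reads made up 83.8 to 87.4% of reads in the cores, 64.0 to 75.3% in the lungs and 65.7 to 81.3% in the rims. Of the 4T1 markers, mouse Krt18 stood at 812 to 1947 CPM over these 15 libraries and mouse Krt8 at 974 to 2059 CPM. The other 2 differed between tissues: mouse Epcam stood at 40.8 to 109 CPM in the lungs, 168 to 258 CPM in the cores and 235 to 752 CPM in the rims, and mouse Cdh1 at 16.2 to 100.3 CPM in the lungs, 199 to 255 CPM in the cores and 125 to 377 CPM in the rims. The library labelled lung from Rat3789 goes against its label in the rat reads: the surfactant gene Sftpc stood at 1.88 CPM there and at 3126 to 5676 CPM in the other 4 lungs. Its collagen gene Col1a1 stood at 7722 CPM, against 494 to 1911 CPM in the other lungs. The lung counts, medians, shares and fitted differences of the members are therefore given with and without it. Calls of marker genes and mitochondrial shares in the lung are given only with it. So are the counts of lung calls with another rat left out, another scaling or another tool. Core with rim, lung with rim and lung with core share libraries, so their results are not independent of each other.

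In 4T1 cells, the genes of mitosis took a smaller part of the mouse reads in the core than in the rim. The 48 genes made up 0.234 ± 0.0456% of mouse reads in the core, 0.609 ± 0.0863% in the lung and 0.498 ± 0.0839% in the rim (SD, n = 5 each). In the host the order was another one, with 0.255 ± 0.0366% of rat reads in the core, 0.201 ± 0.0305% in the lung and 0.182 ± 0.0311% in the rim for the 47 rat copies. Without the library labelled lung from Rat3789, the lung shares were 0.645 ± 0.0339% of mouse reads and 0.193 ± 0.0296% of rat reads (SD, n = 4). In bulk tissue, fewer dividing cells and less of these transcripts per cell cannot be told apart. RNA integrity of the cores and rims was not examined here.

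**Figure D1:**
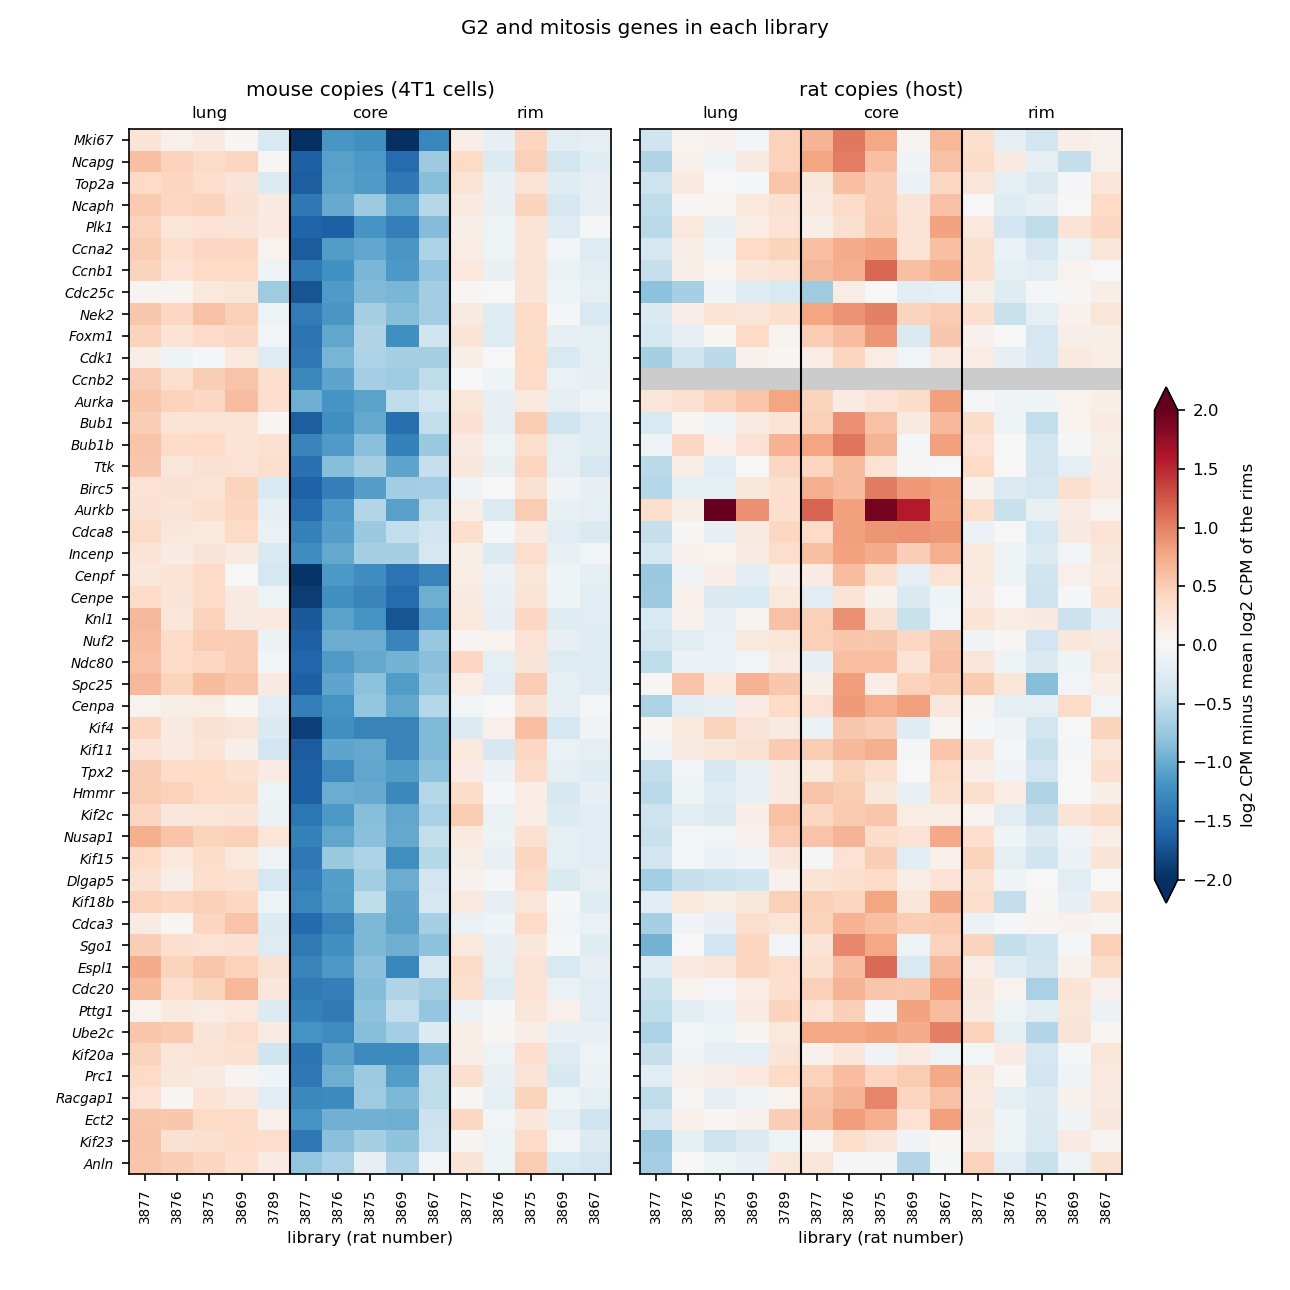
Level of each gene (rows, ordered by role) in each lung, core and rim library (columns, by rat number), as log2 CPM minus the mean log2 CPM of that gene over the 5 rims, mouse copies on the left and rat copies on the right. Mouse copies are low in all 5 cores, while many rat copies are higher in the cores than in the rims, and the row without a rat copy (Ccnb2) is grey.

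Per kilobase of exon, mouse Top2a was the most abundant member in the rim, with a mean of 69.2 CPM per kilobase, followed by Ccnb2 with 56.9 and Cdc20 with 55.3. The least abundant was the kinetochore gene Knl1, with 4.96. The ranges of Top2a (57.6 to 83.4 over the 5 rims) and Ccnb2 (50.1 to 73.3) overlap, so their order was not set apart from the spread between rims.

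The comparison of core with rim asks how 4T1 cells of the necrotic region differ from those around it. Of the 48 mouse copies, 47 were lower in the core and 0 higher (limma, adjusted p under 0.05), where 9.63% of the 13070 mouse genes tested were lower, 10.1% higher and 19.8% called either way. The median log2 difference of the members was -1.01, against 0.01 over all genes tested. Every core library lay below every rim library in 47 members, a pattern that 7.25% of all tested genes showed, and 47 were lower in the core of all 5 rats, against 14.7% of genes. The differences ran from -1.58 to -0.45, so no member reached the median of all genes.

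Chromosome structure genes were all lower in the core, 4 of 4. Mki67, which coats mitotic chromosomes and marks cycling cells, had 181, 109.9, 190.1, 199.96 and 96.8 CPM in the cores, against 389.7, 385, 602, 399.8 and 488 CPM in the rims. The highest core was below the lowest rim by a wide margin. Its log2 difference of -1.58 ± 0.18 (SE; limma adjusted p = 0.00157) was the lowest of the 48. Top2a, the topoisomerase that untangles sister DNA, was at 196 to 342 CPM in the cores and 519 to 751 CPM in the rims (-1.23 ± 0.17). The condensin subunit Ncaph changed least of this role, with 33.4, 23.8, 29.9, 24.8 and 18.5 CPM in the cores and 44.3, 39.6, 67.9, 44.9 and 56.9 CPM in the rims (-0.96 ± 0.17, adjusted p = 0.00665). Its groups did not overlap. Ncapg, another condensin subunit, fell by 1.23.

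All 9 genes of mitotic entry fell. The polo kinase Plk1 had 30.8, 21.8, 24.9, 18.01 and 18.5 CPM in the cores, against 54.4, 47.2, 67.6, 52.3 and 61.3 CPM in the rims (-1.33 ± 0.14, adjusted p = 0.00124). The lowest rim stood well above the highest core. Aurka, the Aurora kinase of the spindle poles, changed least among the 9, at 31.3, 28.8, 19.6, 18.1 and 20.9 CPM in the cores and 38.6, 36.1, 47.2, 36.6 and 48.3 CPM in the rims (-0.82 ± 0.17, adjusted p = 0.0128). Its cores from Rat3867 and Rat3869 lay nearest to the rims, without reaching them. The cyclins Ccna2 (-1.12), Ccnb1 (-1.09) and Ccnb2 (-0.85) fell together with their kinase Cdk1 (-0.86). Cdc25c, a phosphatase that activates Cdk1, fell by 1.07, the centrosomal kinase Nek2 by 0.95 and the transcription factor Foxm1 by 0.95.

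The kinases of the spindle assembly checkpoint fell, 3 of 3. Bub1 had 41.2, 20.4, 28.8, 24.99 and 18.6 CPM in the cores and 48.9, 44.3, 83.02, 51.8 and 71.8 CPM in the rims (-1.18 ± 0.21, adjusted p = 0.00744). Ttk, the kinase also called Mps1, had 29.99, 19.99, 26.2, 22.9 and 14.8 CPM in the cores and 32.8, 36.8, 56.1, 37.4 and 48.3 CPM in the rims (-0.90 ± 0.20, adjusted p = 0.0157). For both, the core of Rat3867 was the highest core and came close to the lowest rims. Bub1b, which encodes the checkpoint protein BubR1, fell by 1.08.

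The chromosomal passenger complex corrects faulty attachments and later guides cytokinesis. All 4 of its genes fell, and they hold some of the smaller differences. Birc5, its survivin subunit, had 54.5, 53.8, 40.6, 33.8 and 28.5 CPM in the cores and 78.1, 83.1, 108, 87.8 and 83.1 CPM in the rims (-1.10 ± 0.17, adjusted p = 0.00424). Incenp, the scaffold, had 112, 88.8, 88.5, 69.1 and 59.2 CPM in the cores and 135, 127, 179.6, 116 and 153 CPM in the rims (-0.78 ± 0.15, adjusted p = 0.00986). The Incenp groups lay close to each other at the core of Rat3867 and the rim of Rat3876. Aurkb, the kinase of the complex, had 43.4, 29.1, 41.1, 27.7 and 21.2 CPM in the cores and 53.5, 55.3, 87.2, 50.7 and 67.2 CPM in the rims (-0.97 ± 0.17, adjusted p = 0.00708). Cdca8, the subunit borealin, fell by 0.81.

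Centromere and kinetochore genes all fell, 7 of 7, with a median of -1.14. Cenpf, a large kinetochore protein, had 73.9, 66.8, 79.05, 84.4 and 47.7 CPM in the cores and 165, 176, 219, 171 and 207 CPM in the rims (-1.43 ± 0.15, adjusted p = 0.00108). Cenpa, the histone variant that marks the centromere, had 101, 72.7, 86.98, 65.4 and 57.7 CPM in the cores and 145, 129.99, 184, 149 and 144 CPM in the rims (-0.99 ± 0.12, adjusted p = 0.00219). Neither gene overlapped between core and rim. The motor Cenpe (-1.39) and the scaffold Knl1 (-1.35) were close to Cenpf, and the Ndc80 complex genes Nuf2 (-1.14), Ndc80 (-1.10) and Spc25 (-1.08) came next.

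Spindle motors and microtubule proteins fell as well, 9 of 9. The chromokinesin Kif4 had 25.02, 18.2, 18.2, 19.6 and 12.6 CPM in the cores and 43.9, 35.9, 69.6, 49.2 and 38.1 CPM in the rims (-1.33 ± 0.17, adjusted p = 0.00231). Kif18b, a motor at microtubule ends, had 30.8, 18.9, 27.7, 18.2 and 15.8 CPM in the cores and 33.2, 38.4, 46.5, 35.2 and 44.8 CPM in the rims (-0.87 ± 0.18, adjusted p = 0.0128). Its core of Rat3867 came within a few CPM of the lowest rim, and the groups still did not overlap. Kif11, the motor that pushes the spindle poles apart (-1.19), its partner in bipolar spindles Kif15 (-0.92) and the microtubule depolymerase Kif2c (-1.03) lay between these. So did the spindle proteins Tpx2 (-1.18), Hmmr (-1.10), Nusap1 (-0.95) and Dlgap5 (-0.91).

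Genes of anaphase onset and protein breakdown fell, 6 of 6. Cdca3, a mitotic adaptor of a ubiquitin ligase, had 19.4, 14.6, 16.4, 12.2 and 10.4 CPM in the cores and 28.1, 29.7, 40.5, 28.98 and 27.96 CPM in the rims (-1.11 ± 0.15, adjusted p = 0.00284). Ube2c had 69.99, 52.9, 47.3, 35.6 and 36.9 CPM in the cores and 76.5, 76.3, 92.9, 87.5 and 93.3 CPM in the rims (-0.85 ± 0.18, adjusted p = 0.0128). The core of Rat3867 again lay closest to the rims for both. Cdc20 (-0.99), the securin gene Pttg1 (-0.97), the separase gene Espl1 (-0.99) and Sgo1 (-1.07), which protects centromeric cohesin, differed by similar amounts.

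Of the genes of the central spindle and cytokinesis, 5 of 6 fell. Kif20a, a motor of the central spindle, had 33.3, 25.3, 25.5, 28.9 and 22.3 CPM in the cores and 56.99, 51.2, 77.8, 57.03 and 67.1 CPM in the rims (-1.20 ± 0.15, adjusted p = 0.00202). Anln, the actin-binding protein anillin of the cleavage furrow, was the member not called. It had 275, 188, 257, 183 and 166 CPM in the cores and 222, 233, 407, 269 and 342 CPM in the rims (-0.45 ± 0.17, adjusted p = 0.0952). Its groups overlapped, and in Rat3867 the core was the higher of the pair. Prc1 (-0.95), which bundles central microtubules, the centralspindlin genes Racgap1 (-0.93) and Kif23 (-0.83), and Ect2 (-0.90), which acts at the cleavage furrow, fell.

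Of the 47 calls, 39 remained under every alternative of processing. The least secure was Cdca8, which was not called without Rat3875, Rat3876 or Rat3877. Without Rat3875, Aurka, Ttk, Ube2c, Kif23 and Ect2 were not called either (41 of 48 called, with 582 of 12798 genes lower). Without Rat3876 and Rat3877 together 40 were called (851 of 12333 genes lower). Anln was called with DESeq2 and without Rat3867 (48 of 48 in each, with 1504 of 13070 and 697 of 12820 genes lower).

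Mouse marker genes moved in the same comparison. Of the 4T1 epithelial markers Epcam, Krt8, Krt18 and Cdh1, 3 of 4 were lower in the core, with a summed level of 2263 to 3729 CPM in the cores and 3839 to 4742 CPM in the rims. Mitochondrial genes took 2.08 ± 0.304% of mouse reads in the cores and 1.78 ± 0.112% in the rims (SD, n = 5 each). The part of these shifts in the result was not tested.

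In the host, the direction was the opposite for many members. Of the 47 rat copies, 25 were higher in the core and 0 lower (limma, adjusted p under 0.05), where 17.5% of the 13559 rat genes tested were higher, 20.1% lower and 37.6% called either way. No copy was lower at an unadjusted p under 0.05 either, nor with edgeR or DESeq2. The median log2 difference was 0.47, against -0.00 over all genes tested. Every core library lay above every rim library in 14 members, a pattern of 11.8% of the tested rat genes. The differences ran from -0.19 to 1.26.

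**Figure D2:**
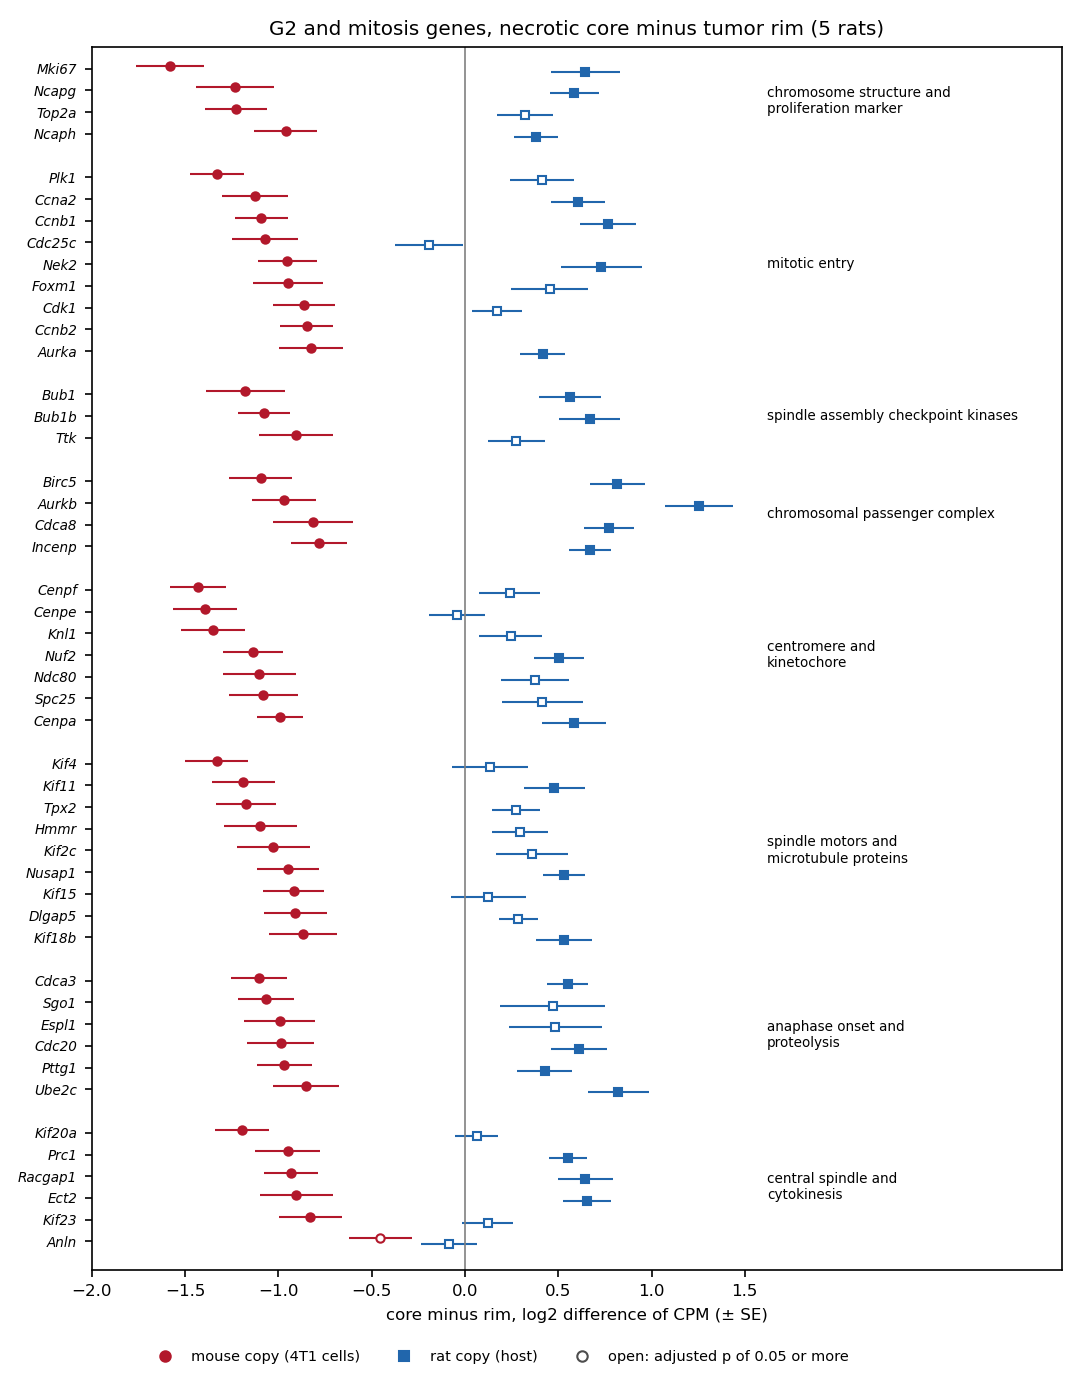
Core minus rim log2 difference of each gene with its standard error (n = 5 rats), mouse copy (red circles) above rat copy (blue squares), genes grouped by role. Filled symbols passed an adjusted p under 0.05. All 48 mouse copies lie left of 0 and 44 of 47 rat copies lie right of 0, with Aurkb farthest to the right.

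The chromosomal passenger complex rose as a whole in the host, 4 of 4 genes, with a median of 0.79. Rat Aurkb had 75.9, 129, 162, 76.2 and 97.2 CPM in the cores, against 45.6, 48.4, 39.1, 31.9 and 55.2 CPM in the rims. All cores were above all rims, with Rat3875 and Rat3869 highest among the cores. Its log2 difference was 1.26 ± 0.18 (SE, adjusted p = 0.00123). Rat Birc5 had 40.9, 42.1, 47.5, 35.7 and 38.2 CPM in the cores and 26.5, 29.00, 18.1, 19.2 and 24.6 CPM in the rims (0.82 ± 0.15, adjusted p = 0.00347). Rat Incenp had 104, 89.3, 107, 110.4 and 96.2 CPM in the cores and 73.99, 61.1, 52.6, 59.4 and 73.3 CPM in the rims (0.67 ± 0.11, adjusted p = 0.00261). Neither gene overlapped between the regions. Cdca8 rose by 0.77.

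Of the anaphase genes, 4 of 6 rose in the host: Ube2c, Cdc20 (0.61), Cdca3 and Pttg1 (0.43). Rat Ube2c had 49.9, 41.4, 43.4, 42.2 and 42.5 CPM in the cores and 25.5, 29.6, 16.6, 21.9 and 33.97 CPM in the rims (0.82 ± 0.16, adjusted p = 0.00542). Rat Cdca3 had 36.5, 35.8, 38.6, 41.6 and 34.9 CPM in the cores and 26.1, 27.02, 26.6, 24.8 and 23.5 CPM in the rims (0.55 ± 0.11, adjusted p = 0.00512). For both, the lowest core exceeded the highest rim, in Cdca3 with a narrow spread inside each region. Espl1 (0.48 ± 0.25) and Sgo1 (0.47 ± 0.28) were not called.

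Mitotic entry was divided, with 4 of 8 rat copies higher and 4 not called. Ccnb1 (0.77 ± 0.15), Nek2 (0.73), Ccna2 (0.61) and Aurka (0.42) rose. Rat Aurka had 39.2, 28.5, 27.2, 24.9 and 30.1 CPM in the cores and 24.3, 23.3, 20.8, 21.2 and 21.7 CPM in the rims, which did not overlap. Rat Plk1 was not called, with 59.6, 41.8, 49.1, 42.8 and 37.2 CPM in the cores and 45.6, 41.1, 23.9, 26.2 and 39.6 CPM in the rims (0.41 ± 0.17, adjusted p = 0.0940). Its values overlapped, since the rims of Rat3867, Rat3869 and Rat3877 reached the level of the cores. Cdc25c had the lowest difference of all rat copies, with 20.3, 19.7, 22.7, 25.5 and 14.00 CPM in the cores and 25.1, 23.3, 22.6, 19.3 and 24.8 CPM in the rims (-0.19 ± 0.18, adjusted p = 0.439). Foxm1 was at 0.45 ± 0.21 and Cdk1 at 0.17 ± 0.13, both not called.

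Among chromosome structure genes 3 of 4 rose in the host. Rat Mki67 had 284, 187, 307, 372 and 289 CPM in the cores and 192, 198, 139, 159.5 and 224 CPM in the rims (0.65 ± 0.18, adjusted p = 0.0244). Its core exceeded its rim in every animal other than Rat3869. Ncapg rose by 0.59 and Ncaph by 0.38, while Top2a (0.32 ± 0.15) was not called. The checkpoint kinases Bub1b (0.67) and Bub1 (0.56) rose and Ttk (0.28 ± 0.15) was not called. Rat Bub1 had 83.7, 60.3, 79.7, 101 and 73.8 CPM in the cores and 59.3, 55.5, 37.9, 49.3 and 68.6 CPM in the rims, and the groups overlapped at the core of Rat3869 and the rim of Rat3877.

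Kinetochore genes and spindle motors were mostly not called in the host. Of 7 centromere and kinetochore genes, Cenpa (0.59 ± 0.17) and Nuf2 (0.50 ± 0.13) rose and 5 were not called. Rat Cenpf had 80.99, 58.1, 83.5, 101 and 74.8 CPM in the cores and 76.2, 71.4, 50.4, 61.99 and 76.6 CPM in the rims (0.24 ± 0.16, adjusted p = 0.284), with overlapping groups. Of 9 spindle motors and microtubule proteins, Nusap1 (0.53), Kif18b (0.53) and Kif11 (0.48) rose and 6 were not called. Rat Kif4 had 26.3, 21.9, 36.4, 37.8 and 23.6 CPM in the cores and 35.5, 26.03, 20.1, 24.8 and 25.6 CPM in the rims (0.13 ± 0.20, adjusted p = 0.642). Its cores of Rat3875 and Rat3876 were high and the other 3 lay below their own rims.

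Cytokinesis genes were split evenly in the host. Ect2 (0.65 ± 0.13), Racgap1 (0.65 ± 0.15) and Prc1 (0.55 ± 0.10) rose. Kif20a had 45.3, 54.04, 45.9, 56.7 and 51.6 CPM in the cores and 57.1, 47.4, 38.2, 54.4 and 47.2 CPM in the rims (0.06 ± 0.11, adjusted p = 0.698). Kif23 (0.12 ± 0.14) and Anln (-0.08 ± 0.15) were not called either, and the groups of these 3 genes overlapped. Whether the roles differ from each other was not tested.

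Of the 25 host calls, 10 remained under every alternative: Ccnb1, Aurkb, Birc5, Cdca8, Incenp, Nusap1, Cdc20, Ube2c, Prc1 and Ect2. Without Rat3875 15 were called (1756 of 13217 rat genes higher) and without Rat3876 17 (1896 of 13169). Without Rat3876 and Rat3877 together 10 were called (1364 of 12615), and DESeq2 called 19 (1909 of 13559).

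Host cell markers also differed between core and rim. Of the fibroblast markers, 5 of 5 tested were lower in the core, with a summed level of 2230 to 7437 CPM in the cores and 16040 to 32647 CPM in the rims. The neutrophil markers S100a8, S100a9, Csf3r and Cxcr2 were higher, 4 of 4, with 168 to 1184 CPM in the cores and 121 to 169 CPM in the rims. Of 5 macrophage markers, 2 were higher and 3 lower, with 2010 to 3346 CPM in the cores and 2869 to 6292 CPM in the rims. Endothelial markers summed to 249 to 767 CPM in the cores and 265 to 497 CPM in the rims (1 of 4 lower, 0 higher). Mitochondrial genes took 2.84 ± 0.303% of rat reads in the cores and 2.31 ± 0.207% in the rims (SD, n = 5 each). Of the lymphocyte markers, Cd8a alone was in the rat table, with 1.82 to 7.57 CPM in the cores and 5.84 to 37.8 CPM in the rims. The part of these markers in the host result was not tested.

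The difference between the species was tested within each rat, as the core minus rim difference of the mouse copy minus that of the rat copy. Of 47 pairs, 46 were called and all 46 were below 0, where 16.6% of the 9741 gene pairs tested were called below 0, 19.2% above 0 and 35.8% either way. The median was -1.5045, against 0.01 over all pairs. The difference was below 0 in all 5 rats in 45 of 47 members, against 19.9% of all pairs. In 44 of 47 members the mean mouse difference was below 0 and the mean rat difference above 0, a pattern of 24.4% of all pairs. In 25 both copies were called in these directions, and the share of all pairs with both calls is not given here. Taken singly, 9.63% of mouse genes were called lower and 17.5% of rat genes higher.

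Mki67 differed most between the species, by -2.23 ± 0.18 (SE, n = 5 rats; limma adjusted p = 0.000182), nearly level with Aurkb at -2.23 ± 0.26 (adjusted p = 0.000616). Birc5 followed with -1.91 ± 0.25 (adjusted p = 0.00103). At the other end stood Kif23 with -0.95 ± 0.21 (adjusted p = 0.00972). Mouse Kif23 had 77.8, 59.2, 65.3, 57.7 and 38.3 CPM in the cores and 85.8, 99.6, 134, 96.1 and 107 CPM in the rims, which did not overlap. Rat Kif23 had 54.5, 50.6, 62.8, 67.2 and 54.1 CPM in the cores and 55.1, 59.1, 42.8, 49.5 and 60.1 CPM in the rims, which did.

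Cdc25c (-0.88 ± 0.22, adjusted p = 0.0154) was the only called pair that was lost in an alternative, without Rat3875 or without Rat3876. Mouse Cdc25c had 16.96, 14.5, 14.8, 12.5 and 8.26 CPM in the cores and 24.1, 25.7, 32.6, 27.3 and 27.8 CPM in the rims, a clear gap. Anln was the pair not called, at -0.37 ± 0.25 (adjusted p = 0.279). Rat Anln had 35.8, 24.1, 35.5, 35.7 and 43.01 CPM in the cores and 45.00, 33.9, 26.6, 31.1 and 49.9 CPM in the rims, with the higher value in the core of Rat3875 and Rat3876 only. A missed threshold does not show that the copies of Anln behaved alike.

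**Figure D3:**
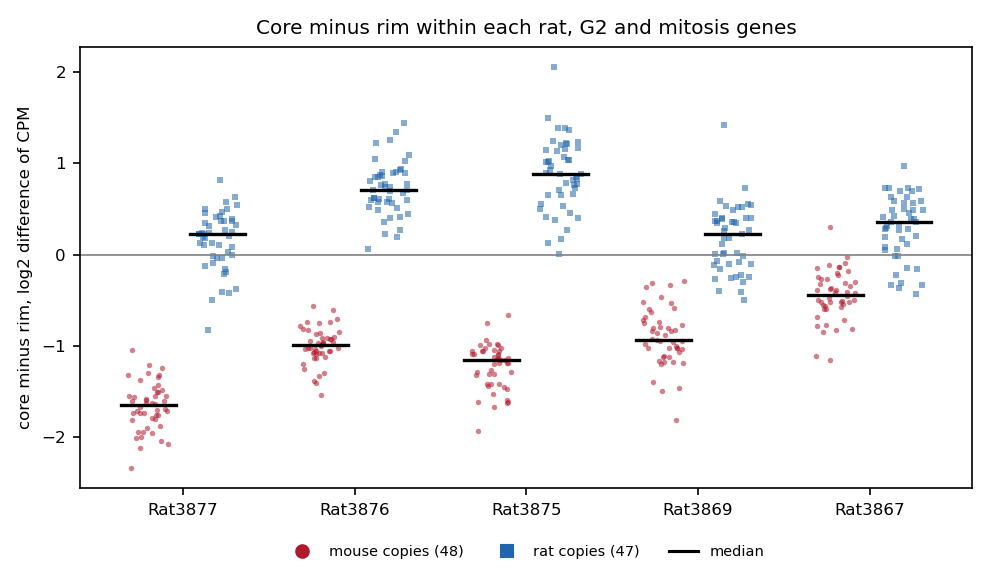
Core minus rim log2 difference of CPM within each rat, 1 point per gene, mouse copies (red circles) left of rat copies (blue squares), with the median as a black bar. The mouse medians lie between -1.65 (Rat3877) and -0.44 (Rat3867) and the rat medians between 0.23 and 0.89 (Rat3875).

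The size of the difference varied between animals. The median of the 48 mouse copies was -0.44 in Rat3867, -0.93 in Rat3869, -1.15 in Rat3875, -0.99 in Rat3876 and -1.65 in Rat3877. The median of the 47 rat copies was 0.35, 0.23, 0.89, 0.71 and 0.23 in the same order. The rat with the lowest mouse median was thus not the one with the highest rat median. All 48 mouse copies were lower in the core in 4 of the 5 rats, and 47 in Rat3867. All 47 rat copies were higher in the core in Rat3875 and Rat3876, against 37 in Rat3867, 34 in Rat3877 and 31 in Rat3869. Over all 5 rats, 25 rat copies were higher each time, against 21% of tested rat genes.

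Misplaced reads between the species were estimated from the controls. The pellet held 234830 mouse reads and 288 rat reads on the members. The per-gene rates rest on few rat reads, with 35 for Kif23 and 0 for 10 members. At these rates, the highest estimated share of 4T1 reads in a rat member was 4.22% in the cores, 4.74% in the rims and 5.27% in the lungs. Each was for Kif23, and the medians were 0.39%, 0.66% and 0.60%. After the estimated 4T1 reads were subtracted, 23 rat copies were called higher in the core, without Kif11 and Pttg1, and 46 pairs differed between the species. Over all genes, 2154 of 13559 rat genes were then called higher and 1474 of 9741 pairs below 0.

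In the lung, 4T1 cells carried more of these transcripts than in the core. All 48 mouse copies were higher in the lung than in the core (limma), where 17.1% of the 13058 mouse genes tested were higher, 19.1% lower and 36.3% called either way. All 48 were also called without the library labelled lung from Rat3789, where 17.4% of genes were higher. The median log2 difference was 1.30 (1.41 without that library), against -0.02 over all genes. In 47 members every lung lay above every core, a pattern of 11.6% of the genes, and in all 48 without that library (14.2%). Mki67 had 361, 452, 504, 479 and 533 CPM in the lungs, against the 96.8 to 199.96 CPM of the cores (1.63 ± 0.20, adjusted p = 7.39e-05, and 1.72 ± 0.20 without the Rat3789 lung). Knl1 had the highest difference (1.69 ± 0.16, and 1.73 ± 0.17 without that lung) and Anln the lowest (0.85 ± 0.14, and 0.91 ± 0.14 without it). The single member with overlap was Cdc25c, whose value in the library labelled lung from Rat3789, 16.8 CPM, lay below the core of Rat3867 at 16.96 CPM.

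Of the 4T1 epithelial markers, 2 of 4 were lower in the lung than in the core, in fits that include the Rat3789 lung. They were Epcam (-1.91 ± 0.23, adjusted p = 7.05e-05, limma) and Cdh1 (-2.38 ± 0.34, adjusted p = 0.000231), while Krt18 (-0.25) and Krt8 (-0.02) were not called. Against the rim all 4 were lower, with Epcam at -3.11 ± 0.32 (adjusted p = 0.000226), Cdh1 at -2.54 ± 0.42 (adjusted p = 0.00227), Krt18 at -0.83 and Krt8 at -0.57. Their summed level was 1866 to 2816 CPM in the lungs (1866 to 2625 CPM without that of Rat3789), 2263 to 3729 CPM in the cores and 3839 to 4742 CPM in the rims. Mitochondrial genes took 1.98 ± 0.261% of mouse reads in the lungs (SD, n = 5), beside the core and rim shares above. The part of these shifts in the lung results was not tested.

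Against the rim, fewer members were called. Of the 48 mouse copies, 10 were higher in the lung and 0 lower (limma), where 9.91% of the 12970 genes tested were higher, 10.2% lower and 20.1% called either way. The median was 0.29, against 0.01 over all genes. Espl1 had 58.3, 65.01, 69.05, 63.9 and 78.9 CPM in the lungs and 41.9, 37.9, 57.3, 41.4 and 60.9 CPM in the rims (0.50 ± 0.14, adjusted p = 0.0264, and 0.55 ± 0.15 without the Rat3789 lung). Spc25 had 28.6, 36.9, 38.98, 34.5 and 39.6 CPM in the lungs and 21.1, 22.4, 35.7, 21.7 and 27.96 CPM in the rims (0.49 ± 0.15, adjusted p = 0.0418, and 0.57 ± 0.15 without the Rat3789 lung). A single rim reached the range of the lungs in each gene, that of Rat3877 for Espl1 and that of Rat3875 for Spc25.

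Nusap1 had 83.6, 97.9, 95.8, 105 and 115 CPM in the lungs and 60.5, 62.5, 86.8, 65.9 and 80.4 CPM in the rims (0.49 ± 0.12, adjusted p = 0.0150, and 0.55 ± 0.12 without the Rat3789 lung), with the rim of Rat3875 inside the range of the lungs. The other 7 called were Aurka (0.48), Cdc20 (0.46), Ccnb2 (0.45), Bub1b (0.39), Kif23 (0.38), Ube2c (0.37) and Ccna2 (0.35). Without the Rat3789 lung these differences were 0.51, 0.52, 0.47, 0.41, 0.39, 0.42 and 0.42 in the same order, and all 10 remained called. In 2 of 48 members, Aurka and Ube2c, every lung lay above every rim, against 6.7% of all genes, and in 12 without the Rat3789 lung (9.78%). Mki67 was not called (0.05 ± 0.14, adjusted p = 0.833, and 0.14 ± 0.13 without that lung).

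This comparison turned on single animals. Without the library labelled lung from Rat3789, 20 members were called higher, against 10.7% of genes, and the median was 0.36. Without Rat3869, 0 were called (11 at an unadjusted p under 0.05), without Rat3876 Aurka and Ccnb2, and without Rat3867 these 2 and Nusap1. In the same order, 548 of 12648, 598 of 12704 and 811 of 12844 genes were called higher. Each of these fits kept the Rat3789 lung. With the rat as a block over the animals that gave both tissues, the paired count was 16, where 1163 of 12970 genes were higher. None of the 10 calls remained under every alternative.

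**Figure D4:**
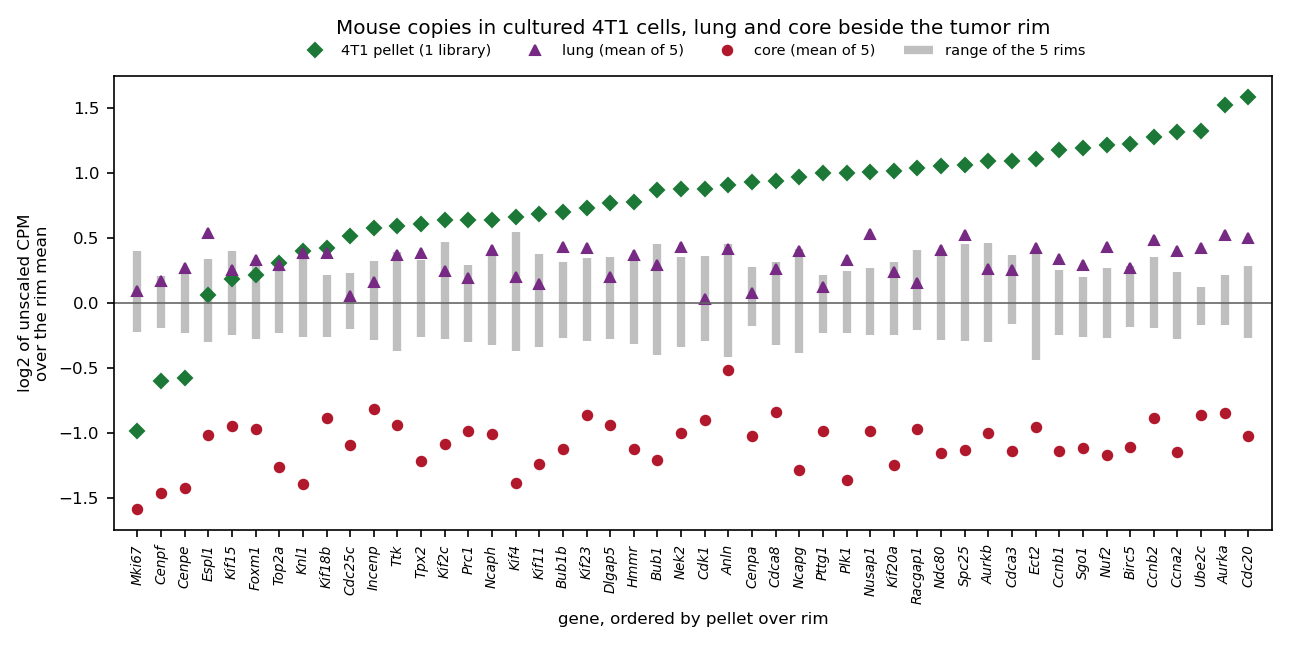
Mouse copies in CPM without the further factor, as log2 over the rim mean, in the 4T1 pellet (green diamonds, 1 library), the lung (purple triangles, mean of 5) and the core (red circles, mean of 5), with the range of the 5 rims as grey bars. The cores lie below the rim bars, and the pellet lies above them for 42 of 48 genes and below them for Mki67, Cenpf and Cenpe.

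Host copies in the lung lay near those of the rim. Only Aurka was called among 47 rat copies, higher in the lung (limma), where 10.5% of the 13841 rat genes tested were higher, 11.6% lower and 22.1% called either way. Rat Aurka had 38.5, 32.6, 30.6, 27.4 and 26.2 CPM in the lungs, against 24.3, 23.3, 20.8, 21.2 and 21.7 CPM in the rims, with every lung above every rim (0.47 ± 0.12, adjusted p = 0.0150). Without Rat3869 and without Rat3875, 0 copies were called (3 at an unadjusted p under 0.05 in each). Of all rat genes, 1767 of 13442 and 1384 of 13463 were called in these fits. Without the library labelled lung from Rat3789, 3 copies were called, against 29.7% of genes, with Aurka higher (0.39 ± 0.11) and the spindle gene Dlgap5 (-0.49 ± 0.12) and Kif23 (-0.40 ± 0.14) lower. DESeq2 called Aurka and Aurkb, and 3829 of 13805 rat genes in all. The median was -0.00 (-0.10 without the Rat3789 lung), against 0.02 over all genes. With scaling to total reads the median of all rat genes moved to 0.15 and that of the members to 0.13.

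Against the core, 22 of 47 rat copies were lower in the lung and 0 higher (limma), where 14.9% of the 13579 genes were lower, 17.9% higher and 32.8% called either way. The median was -0.46, against 0.03 over all genes, and in 12 copies every lung lay below every core (10.3% of genes). Without the Rat3789 lung the median was -0.55 and the groups did not overlap in 20 copies (14.1% of genes). Rat Ube2c had 28.7, 25.6, 22.97, 23.7 and 16.2 CPM in the lungs, well under the 41.4 to 49.9 CPM of the cores (-0.93 ± 0.15, adjusted p = 0.00109, and -1.01 ± 0.15 without the Rat3789 lung). Birc5 (-0.89), Racgap1 (-0.78), Cdca8 (-0.77) and Ccnb1 (-0.72) were the next lowest, at -0.99, -0.83, -0.88 and -0.79 without that lung. Without the library labelled lung from Rat3789, 29 were called lower, against 17.2% of genes. Without Rat3875, Rat3876 or Rat3877, 10, 9 and 12 were called, where 1103 of 13117, 1440 of 13099 and 1199 of 13194 genes were lower. With total reads, where the median of all genes moved to 0.14, 12 were called, against 1454 of 13579 genes.

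Rat Aurkb varied widely between the lungs. It had 54.4, 81.8, 182, 47.3 and 55.04 CPM there, with the lung of Rat3875 above every core. It was called neither against the rim (0.76 ± 0.33, adjusted p = 0.130) nor against the core (-0.50 ± 0.35, adjusted p = 0.305). Without the Rat3789 lung these differences were 0.87 ± 0.34 and -0.39 ± 0.36, and neither was called.

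Host cell markers differed between the lung and both parts of the tumor, in fits that include the Rat3789 lung. Alveolar and airway markers were higher in the lung against core and rim, 5 of 5 in each, with a summed level of 18.7 CPM in the Rat3789 lung and 8557 to 15820 CPM in the other lungs, 32.4 to 159.9 CPM in the cores and 9.97 to 107.8 CPM in the rims. Fibroblast markers summed to 9300.1 CPM in the Rat3789 lung and 752 to 2136 CPM in the other lungs, beside the core and rim values above (5 of 5 lower against the rim, and 1 higher and 2 lower against the core). Neutrophil markers summed to 403.7 CPM in the Rat3789 lung and 2169.5 to 5262 CPM in the others (4 of 4 higher against the rim, 2 of 4 against the core).

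Macrophage markers stood at 6649.8 CPM in the Rat3789 lung and 1894 to 3199 CPM in the others (1 of 5 lower against the rim, and 1 higher and 1 lower against the core). Endothelial markers stood at 346 CPM in the Rat3789 lung and 911 to 2052 CPM in the others (2 of 4 higher in both comparisons). Cd8a stood at 3.94 to 8.02 CPM in the lungs and was lower than in the rim. Mitochondrial genes took 2.35 ± 0.202% of rat reads in the lungs (SD, n = 5). The part of these markers in the host lung results was not tested.

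Cultured 4T1 cells in the pellet give a level of these transcripts outside the animal, in 1 library counted in another table and without a test. On the scale of CPM without the further factor, the pellet was above every rim in 42 members, a pattern of 28.3% of the 13070 mouse genes. The pellet was above every core in 48 of 48 members, and the share of all genes with that pattern is not given here. It reached at least 2-fold the rim mean in 17 members, against 7.9% of all genes, and in 29 with TMM scaling between pellet and rims, against 13.9% of all genes. The median log2 ratio of pellet to rim was 0.88, against -0.32 over all genes. Cdc20 stood at 309 CPM (95% Poisson interval 303 to 316) in the pellet and 103 ± 19.7 in the rims (SD, n = 5). Aurka stood at 118 CPM (95% Poisson interval 114 to 122) in the pellet and 41.3 ± 5.50 in the rims. These were the members with the highest ratios.

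Mki67 went the other way, with 229 CPM (95% Poisson interval 224 to 235) in the pellet and 452 ± 89.3 in the rims. Cenpf stood at 124 in the pellet and 187 ± 22.7 in the rims, and Cenpe at 111 in the pellet and 166 ± 23.5 in the rims. These 3 were the only members with the pellet below every rim, a pattern of 49.5% of the mouse genes. The plot of pellet, lung and core shows the pellet of these 3 between the rim bars and the cores. Their exons together cover 10061 bases for Mki67, 15433 for Cenpf and 8620 for Cenpe, against 1868 for Cdc20 and 2531 for Aurka. Anln, with 9063 bases, stood in the pellet at 1.88-fold its rim mean. The part of transcript length in the ratios of pellet to rim was not tested.

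Normal mammary gland held little of the host copies. The members took 1001 and 1986 rat reads in the 2 glands, which is 0.00484% and 0.00929% of their rat reads. Both glands lay below every rim and every core in 47 of 47 members, and the share of all rat genes with that pattern is not given here. Rat Mki67 stood at 173 to 383 CPM, without the further factor, in the cores and 127 to 224 in the rims, against 0.776 and 2.82 in the glands. The glands also held 501 and 956 mouse reads on the members, and in 24 and 22 members more mouse than rat reads. The members took 0.134% and 0.223% of the mouse reads of the glands, a larger part than of their rat reads. The glands held no transplant, and the source of these mouse reads was not tested. The lowest gland values are therefore uncertain.

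Other genes of the same machinery were described from lists set beside the members. Beside their counts stand the shares of all genes given for core against rim: in the mouse 9.63% lower, 10.1% higher and 19.8% called either way, and in the rat 17.5% higher, 20.1% lower and 37.6% called either way. Of 40 further genes with a mitotic peak, 35 mouse copies were lower in the core, led by the kinase gene Melk at -1.52 ± 0.20 (SE), and 16 of 38 rat copies were higher, led by Shcbp1 at 1.11 ± 0.19. Of the constitutive centromere network, 13 of 24 mouse copies were lower, and 5 of 21 rat copies higher, among them Mis18a (0.95 ± 0.28), against 17.5% of all rat genes. Of the other condensin subunits, 4 of 6 mouse copies were lower, with Smc2 at -1.10 ± 0.16, and 3 of 6 rat copies higher, with Ncapd2 at 0.58 ± 0.13.

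The other lists held a smaller share of calls in 4T1 cells. Of 16 APC/C subunits and partners, 1 mouse copy was higher and 2 lower in the core, with Ube2s at -0.50 ± 0.15, and 3 rat copies were higher and 2 lower, with Cdc16 at -0.65 ± 0.10. In both species these calls, 3 and 5 of 16, were no larger a share than that of all genes called either way. Of 12 cohesin genes and loaders, 2 mouse copies were lower, against 9.63% of all mouse genes, including the acetyltransferase Esco2 at -0.98 ± 0.21, and 0 rat copies were called by limma, edgeR or DESeq2 (3, 3 and 1 at an unadjusted p under 0.05). Of 18 MuvB, Myb and E2F regulators, 5 mouse copies were lower, with the repressor E2f7 at -1.41 ± 0.24, while of 17 rat copies 2 were higher, with E2f2 at 0.94 ± 0.18, and 2 lower, both under the shares of all rat genes. The median log2 differences, mouse copies and then rat copies, were -0.88 and 0.45 for the mitotic peak list, -0.65 and 0.32 for the centromere network, -0.60 and 0.32 for condensin, -0.03 and 0.04 for APC/C, -0.14 and 0.07 for cohesin, and -0.12 and 0.20 for the regulators, against 0.01 and -0.00 over all genes. Among brakes and phosphatases of Cdk1, 5 of 15 mouse copies were lower and 1 higher, and 4 of 13 rat copies higher. Cdkn1a, which encodes the inhibitor p21, stood at -1.26 in 4T1 cells and 1.42 in the host.

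In the mouse genome (GRCm38), the 3 members with the largest species difference lie apart. Mki67 spans chr7:135689784-135716361 on the minus strand, Aurkb chr11:69045647-69051664 on the plus strand and Birc5 chr11:117849251-117855743 on the plus strand. No exon of these 3 overlaps another annotated gene. Exons of Ube2c overlap Tnnc2, those of Cdc20 overlap Elovl1 and those of Ccna2 overlap Exosc9, on the opposite strand. The same holds for Cdc25c, Ncapg, Kif4, Cdca8, Prc1, Kif20a, Nek2, Nusap1 and Plk1, while Foxm1 and Top2a share exons with genes on their own strand. Whether reads were counted by strand is not stated in the sources, so their levels are less certain.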

How the data were processed

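PolyA RNA from snap-frozen core, rim and lung (5 libraries each), gland (2) and pellet (1) had been sequenced. The submitters' processing notes name STAR, Trim Galore, limma and featureCounts and the builds GRCm38 and Rnor_6.0. Their versions and settings are not stated there. The authors deposited a normalized signal (CPM on the voom scale, with 0.5 read added) for tumor and lung, in separately scaled mouse and rat tables, so levels are not compared across species. Controls are deposited as read counts per gene. Whole reads were recovered from 100% of the signal values within 0.01 reads. Columns not mapped to a sample numbered 0, and the glands keep the table's numbers, which are not matched to the labels.

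The members, lists and tests were chosen with earlier results of these data known. The planned test, edgeR, assumed counts. Because the deposited values are a signal, log2 values were tested with limma 3.58.1 (trend, two-sided) in R 4.3.3, on genes that reached 1 CPM in 5 or more libraries, with Benjamini-Hochberg adjusted p under 0.05 over all genes tested. All 48 mouse and 47 rat copies passed this filter. Other fits used limma-voom, edgeR 4.0.16 and DESeq2 1.42.0 on recovered reads. The fits were tested on simulated data.

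Core and rim were paired by the animal in the labels. Deviations of the regions from their group means correlated in Rat3867, Rat3869, Rat3875, Rat3876 and Rat3877 at -0.01, 0.16, 0.24, 0.19 and -0.18 over mouse genes and 0.03, 0.03, 0.09, 0.09 and 0.34 over rat genes. Lung fits had no block, because Rat3789 gave no tumor library and Rat3867 no lung. No replicates agreed within sampling noise (lowest chi-square per degree of freedom 5.39).

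Values in every library are given for the members with the largest and the smallest mouse core minus rim difference of each role, and the 3 largest and 3 smallest species differences. The 3 largest differences of lung and rim follow the same rule. From each pathway list the gene with the largest difference is named (1 such gene is not reported here), and other members are named with their difference alone. Members behind a count of 5 or fewer in an alternative were named after their values were seen. Promoter and protein sequences were not analysed here. Intervals of the pellet (95%) cover counting error only.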

Additional observations from a re-analysis of the deposited data

Results flagged for a closer look

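Of 138 groups of 5 libraries examined for the members given in every library, 9 held a value far from the other 4, where chance gives about 1 in 20. In the mouse copies, the library labelled lung from Rat3789 was low against the other lungs for Cdc25c (16.8 CPM), Birc5 (71.0 CPM), Incenp (113 CPM), Kif18b (36.7 CPM) and Kif20a (46.7 CPM). The lung of Rat3877 was high for mouse Kif23 (153 CPM), and the rim of Rat3875 was high for mouse Cdca3 (40.5 CPM). In the rat copies, the lung of Rat3875 was high for Aurkb (182 CPM) and the core of Rat3867 was high for Ube2c (49.9 CPM).

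The core minus rim difference of the mouse copy differed from that of the rat copy, by limma on the differences within 5 rats, in 46 of 47 members. Among those given in every library it was -2.23 for Mki67, -2.23 for Aurkb, -1.91 for Birc5, -0.95 for Kif23 and -0.88 for Cdc25c, each below 0 in 5 of 5 rats.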

How the results depend on the processing

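Depth limits the host values more than those of 4T1 cells, since cores held 3146720 to 4221679 rat reads. Alternatives were other scalings (total reads, TMM, upper quartile), other filters, log2(CPM + 1), limma-voom, edgeR, DESeq2, the replicate block, subtraction of misplaced reads and each rat left out. They left the counts of called mouse copies in core against rim (41 to 48 over the rats left out), of pairs that differ between the species (45 to 46) and of mouse copies in lung against core (48 in each) within 1.5 times.

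Called rat copies in core against rim numbered 15 to 25 over the rats left out and 10 without Rat3876 and Rat3877. Lung against rim gave 0 to 20 called mouse copies over the rats left out and 16 with the replicate block, and 0 to 3 rat copies and 2 with DESeq2. Lung against core gave 9 to 29 rat copies and 12 with total reads. The pellet reached 2-fold the rim mean in 29 members with TMM, an alternative chosen after seeing the data. The block moved no other count of calls by over 1.5 times.

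Uncalled rat copies changed sign in core against rim when a rat was left out. Cenpe ran from -0.18 to 0.037 (0.036 without Rat3867, 0.010 without Rat3869, 0.037 without Rat3877), Kif15 from -0.0652 (without Rat3875) to 0.28, Kif4 from -0.047 (without Rat3875) to 0.27 and Anln from -0.21 to 0.017 (without Rat3869). The cause was not tested.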
